A study of Rattus norvegicus with 6 samples.

Results

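Synaptic vesicle, SNARE and active zone genes encode the machinery that stores transmitter in vesicles, brings the vesicles to the presynaptic membrane and fuses them with it. They were taken as the genes of the deposited count table whose symbols name a synaptotagmin, an SV2 protein, a synapsin, a syntaxin, a VAMP, a SNAP-family SNARE or Snap91, a complexin, a RIM, a Munc13 protein, a Rab3 GTPase, a syntaxin-binding protein, a Doc2 protein, synaptophysin, synaptoporin, a synaptogyrin, a vesicular glutamate transporter, Bassoon, Piccolo or an ELKS protein. This gave 89 of the table's 56748 genes. The rule reads symbols and not measured values, but the gene families were picked with earlier results of these data known. Of the 89, 83 had enough counts to be tested. The other 6 (Cplx3, Cplx4, Doc2a, Stx19, Syt8 and Syt10) had 0 to 14 counts summed over the EVadMu libraries and 1 to 19 over the EVMu libraries.

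The libraries were labelled as primary rat neurons of dorsal root ganglia, and markers of other cell types, given below, were present as well. One group had received extracellular vesicles of muscle that had been acutely denervated (EVadMu, 3 libraries) and the other those of innervated muscle (EVMu, 3 libraries). The labels give no genotype, dose, duration or age, and there is no group without vesicles, so a lower level in EVadMu cannot be told apart from a higher one in EVMu. Nothing in them ties each library to a culture or an animal of its own. The p-values therefore rest on library-to-library spread, which may be technical, and a difference in culture or sequencing batch between the groups cannot be told apart from the kind of vesicle. The gene identifiers and the genome build in the submitters' notes are those of mouse. Which species the cells are was therefore not settled, and what counting on the genome of another species would do to each gene was not tested.

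Neurotransmitter release rests on the SNARE proteins. A VAMP on the vesicle pairs with a syntaxin and a SNAP-family protein on the plasma membrane, and the assembling bundle pulls the membranes together. Syntaxin-binding and Munc13 proteins prepare the syntaxin, complexins clamp and then assist the bundle, and synaptotagmins trigger fusion when calcium enters. RIM, ELKS, Bassoon and Piccolo form the active zone, the scaffold that holds vesicles beside calcium channels. Sensory neurons of the ganglion release glutamate and peptides from their terminals by this machinery, and other syntaxins, VAMPs and SNAP proteins serve the endoplasmic reticulum, Golgi, endosomes and lysosomes of every cell.

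Library totals ran from 14853115 to 17019877 counts. Levels are given as CPM, counts per 1000000 library counts after scaling by TMM factors, and folds as the log2 fold change of EVadMu over EVMu with its standard error, so that a negative value means a lower level in EVadMu. A gene was called when its Benjamini-Hochberg adjusted p in edgeR's quasi-likelihood test, over all 16993 genes tested, was under 0.05. The groups differed in most genes: 80% of all tested genes were called, 39.2% higher and 40.8% lower. Counts of members are read against these shares.

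Of the 83 members tested, 71 were called in edgeR's test, 23 higher (27.7%) and 48 lower (57.8%) in EVadMu, and 12 did not pass. The share called, 85.5%, was near the 80% of all genes, while the share lower was above the background of 40.8%. Changes of 2-fold or more were called for 32 of the 83 members, 27 lower and 5 higher. Over all 16993 tested genes the share with such a change was 41.1%, with 23.5% lower and 17.6% higher. The median log2 fold change over the 83 members was -0.58, beside -0.02 over all tested genes. The 3 EVadMu libraries lay wholly above the EVMu libraries for 24 tested members and wholly below them for 46, so that 13 overlapped, where 80.7% of all tested genes did not overlap, 39.4% with EVadMu above and 41.4% with EVadMu below. Summed over all 89 members, the level was 5424, 5419 and 5451 CPM in the EVadMu libraries, against 7161, 7118 and 7124 CPM in the EVMu libraries.

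The direction differed by role. All 8 active zone scaffold genes and 14 of 17 vesicle protein genes were lower in EVadMu, with medians of -1.36 and -0.91, and so were 11 of 14 tested SNARE regulators (median -0.75). All 4 SNAP-family genes were higher (median 0.34), as were 4 of 6 VAMP genes, with 1 lower (median 0.25). Syntaxins went both ways, with 8 of 14 tested higher (57.1%) and 5 lower (35.7%), and a median of 0.40. Synaptotagmins and Doc2 genes were mixed, with 8 of 17 tested lower (47%) and 3 higher (18%). Over all tested genes 40.8% were lower and 39.2% higher, so the shares lower of syntaxins and synaptotagmins were near the background.

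**Figure D1:**
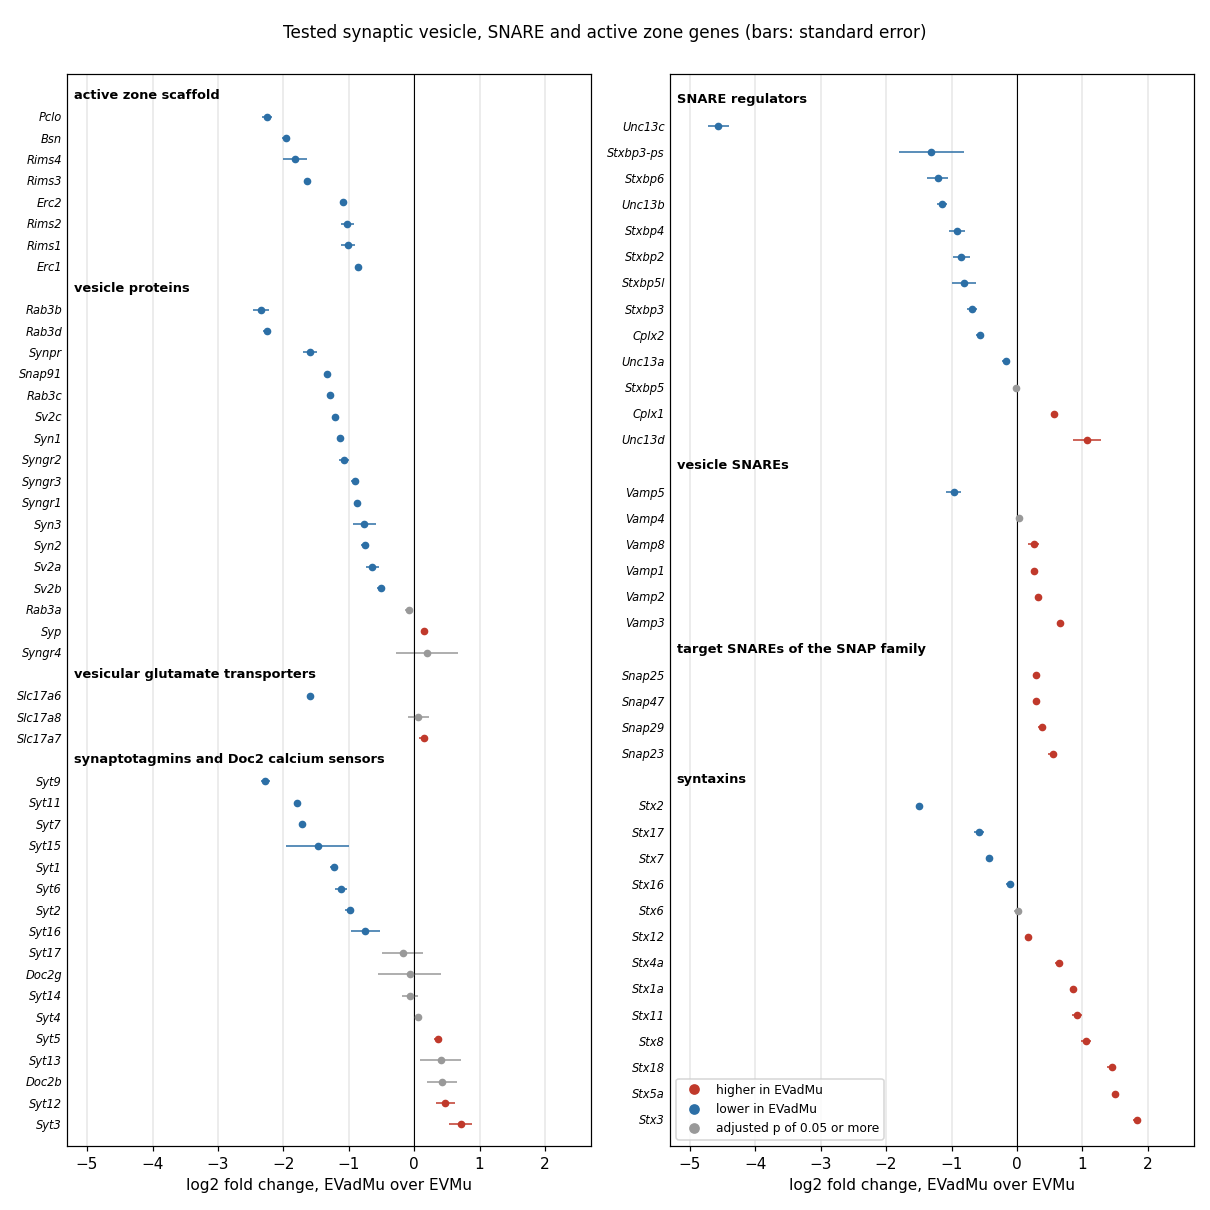
Log2 fold change of EVadMu over EVMu for 81 tested members, arranged by role, with bars for the standard error; red is called higher, blue called lower and grey not called. Every active zone scaffold gene lies left of 0 and every SNAP-family gene right of it, and the values run from -4.57 (Unc13c) to 1.83 (Stx3).

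Neuron markers were also lower in the same libraries. Of 15 (among them Tubb3, Map2, Rbfox3 and the neurofilament genes), 13 were lower and 0 higher, with a median of -1.08, and their summed level was 3861 to 3957 CPM in EVadMu and 6699 to 6974 CPM in EVMu. Nefh and Uchl1, of the neurofilament heavy chain and a neuronal hydrolase, did not pass (0.056 and -0.07). Markers of other cells were present as well. The 9 fibroblast markers, all lower, summed to 239 to 255 CPM in EVadMu and 5776 to 5841 CPM in EVMu. Of 10 Schwann and satellite glia markers 9 were lower and S100b did not pass (912 to 930 CPM in EVadMu, 3963 to 4153 CPM in EVMu), and all 8 endothelial and mural markers were lower (116 to 119 CPM in EVadMu, 756 to 785 CPM in EVMu). Of 8 tested macrophage and leukocyte markers 6 were lower and Cd68, a lysosomal protein gene, was higher, at 131 ± 3.23 CPM in EVadMu and 12.9 ± 1.89 CPM in EVMu (SD, n = 3 each). The 10 markers of this list summed to 133 to 140 CPM in EVadMu and 97.2 to 106 CPM in EVMu, and the 9 without Cd68 to 4.70 to 5.24 CPM in EVadMu and 86.6 to 91.9 CPM in EVMu. No marker of these lists was without counts in all 6 libraries. In bulk RNA, fewer cells of a type and less RNA per cell cannot be told apart, and the part of these markers in the results below was not tested.

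The active zone scaffold was lower throughout. Bassoon, a giant protein that spans the active zone, had 35.8, 37.8 and 33.0 CPM in the EVadMu libraries, against 133, 136 and 146 CPM in the EVMu libraries, a log2 fold change of -1.96 ± 0.055. Piccolo, its relative, stood at 12.7, 13.4 and 14.5 CPM in EVadMu and 68.3, 62.3 and 63.0 CPM in EVMu (-2.25 ± 0.074), the lowest fold of the 8. For both genes the groups lay far apart, with the EVMu level 3.89 and 4.76 times the EVadMu level. The RIM proteins link Rab3 on the vesicle to Munc13 and the calcium channels. Rims1 had 13.2, 11.1 and 10.8 CPM in EVadMu, against 22.7, 24.0 and 24.2 CPM in EVMu (-1.01 ± 0.1), and Rims2 gave nearly the same fold, -1.02 ± 0.1. Rims3 and Rims4 encode short RIMs that lack the parts binding Rab3 and Munc13. Rims3 averaged 42.2 ± 0.541 CPM in EVadMu and 131 ± 5.92 CPM in EVMu (SD, n = 3 each; -1.63 ± 0.051), and Rims4 had 2.60, 2.38 and 2.40 CPM in EVadMu, against 7.84, 7.96 and 10.3 CPM in EVMu (-1.82 ± 0.19). The ELKS gene Erc2, which is largely neuronal, had 31.3, 32.3 and 34.1 CPM in EVadMu, against 66.8, 70.8 and 69.0 CPM in EVMu (-1.08 ± 0.059). Erc1, the widely expressed ELKS gene, was the member of this role with the smallest fall (-0.86 ± 0.056) and the one that did not reach 2-fold. The summed level of the 8 genes was 190 to 192 CPM in EVadMu and 523 to 543 CPM in EVMu.

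Among vesicle proteins, the Rab3 GTPases differed from each other. Rab3a, the main synaptic form, did not pass, at 64.9, 71.9 and 74.3 CPM in EVadMu and 72.0, 79.1 and 71.7 CPM in EVMu, with a log2 fold change of -0.077 ± 0.055 (95% interval -0.19 to 0.031). Rab3b had 4.46, 6.78 and 4.99 CPM in EVadMu, against 26.6, 26.8 and 28.9 CPM in EVMu (-2.34 ± 0.12). Rab3d, found mainly on secretory granules outside the nervous system, stood at 23.4, 26.4 and 23.0 CPM in EVadMu and 116, 119 and 113 CPM in EVMu (-2.25 ± 0.058). Rab3c fell as well (-1.28 ± 0.048). Rab3b, Rab3c and Rab3d were thus lower in every EVadMu library, with no overlap, while the Rab3a groups overlapped.

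The synapsins tether vesicles into the reserve pool. Syn1 had 77.5, 73.6 and 72.1 CPM in EVadMu, against 162, 170.0 and 158 CPM in EVMu (-1.13 ± 0.045), and Syn2 had 33.3, 31.0 and 35.8 CPM in EVadMu, against 57.3, 55.2 and 56.5 CPM in EVMu (-0.76 ± 0.063). Syn3 fell by a similar amount (-0.76 ± 0.18). SV2 proteins are vesicle glycoproteins and the entry receptors of some botulinum toxins. Sv2a, at 14.4, 16.9 and 15.4 CPM in EVadMu and 23.6, 23.2 and 25.8 CPM in EVMu, had a log2 fold change of -0.64 ± 0.094, Sv2b one of -0.50 ± 0.061 and Sv2c one of -1.21 ± 0.034. In each case the 3 EVadMu libraries lay below the 3 EVMu libraries.

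Synaptophysin, a widely used marker of synaptic vesicles, went the other way by a small amount. Syp had 167, 171 and 165 CPM in EVadMu, against 155, 143 and 155 CPM in EVMu (0.15 ± 0.04, edgeR adjusted p = 0.00125), and the call was lost when libraries were compared by their totals alone (0.035, adjusted p = 0.427; range over 14 alternatives 0.000329 to 0.427). Its relative Synpr, synaptoporin, had 7.49, 7.91 and 8.14 CPM in EVadMu, against 23.2, 25.3 and 22.7 CPM in EVMu (-1.60 ± 0.11), wholly apart. The synaptogyrins, of the same protein family, fell with log2 fold changes of -0.88 (Syngr1), -1.07 (Syngr2) and -0.91 (Syngr3), and Syngr4, with under 20 counts in any library, did not pass (0.20 ± 0.47). Snap91, which encodes the clathrin assembly protein AP180 of vesicle retrieval and is no SNARE, fell with -1.34 ± 0.045. The 17 vesicle protein genes summed to 901 to 923 CPM in EVadMu and 1739 to 1758 CPM in EVMu.

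Vesicular glutamate transporters fill the vesicles. Slc17a6, which encodes VGLUT2, had 84.8, 81.8 and 83.2 CPM in EVadMu, against 254, 254 and 245 CPM in EVMu (-1.59 ± 0.04), about the fold of the synaptoporin gene. Slc17a7, which encodes VGLUT1, had 48.9, 49.4 and 43.9 CPM in EVadMu, against 44.5, 40.1 and 44.0 CPM in EVMu. Its groups overlapped, and its rise (0.14 ± 0.064, edgeR adjusted p = 0.039) was lost in 9 of 14 alternatives, among them the omission of any 1 library other than EVadMu replicate 3 (adjusted p = 0.0536 to 0.247; range over all alternatives 0.00679 to 0.662). Slc17a8 (VGLUT3) did not pass (0.064 ± 0.16). The ratio of Slc17a6 to Slc17a7 within a library was lower in EVadMu, with a difference of -1.74 on the log2 scale.

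**Figure D2:**
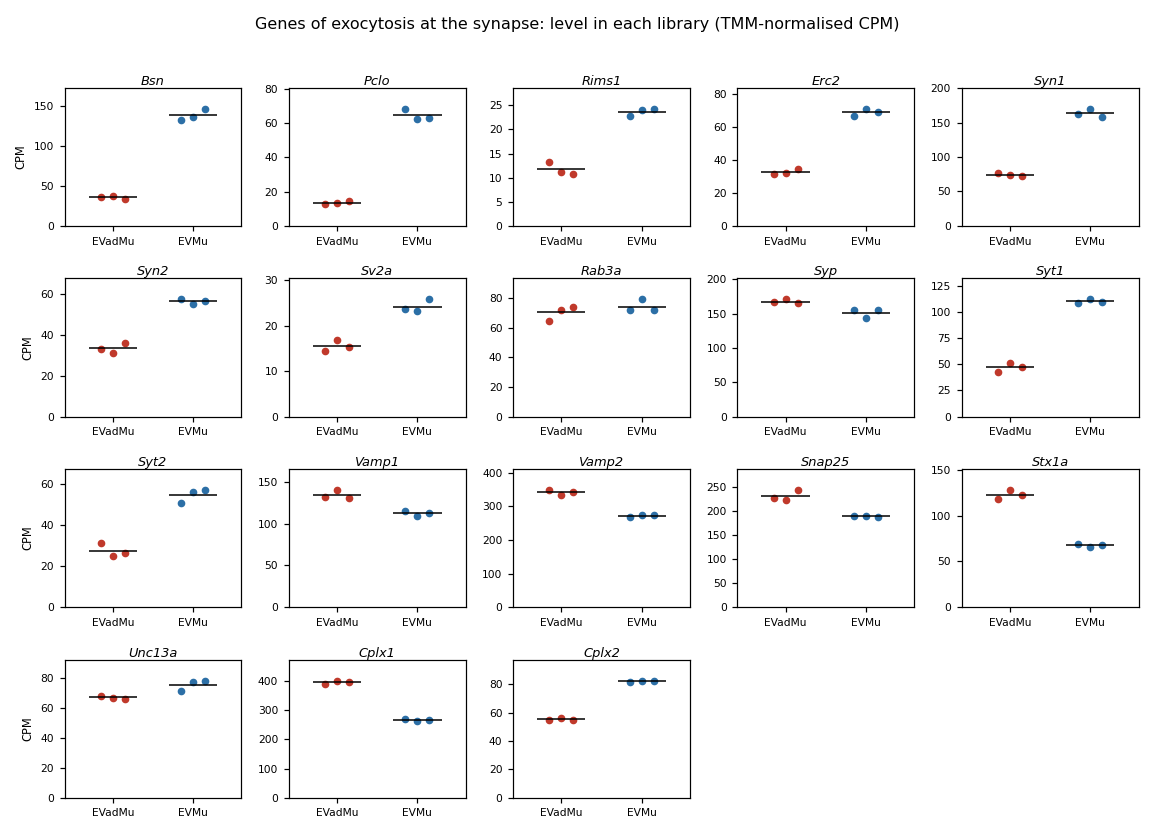
Level of 18 genes of exocytosis at the synapse in each library, in TMM-normalised CPM on axes that start at 0; points are the 3 libraries of EVadMu (red) and EVMu (blue), and lines are group means. The EVadMu points lie below the EVMu points for 11 genes and above them for 6, and for Rab3a they overlap.

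Synaptotagmins that serve as fast calcium sensors of vesicle fusion were lower. Syt1 had 43.1, 51.0 and 47.8 CPM in EVadMu, against 109, 112 and 110.2 CPM in EVMu (-1.23 ± 0.054), and Syt2 had 31.2, 24.9 and 26.4 CPM in EVadMu, against 50.7, 55.8 and 56.8 CPM in EVMu (-0.99 ± 0.073). Syt9, the third fast sensor, had the largest fall of the family, with 14.5, 14.1 and 13.8 CPM in EVadMu, against 67.8, 71.6 and 65.9 CPM in EVMu (-2.27 ± 0.07). Syt7, a sensor of higher calcium affinity that acts in slower release, stood at 36.0, 37.1 and 34.0 CPM in EVadMu and 119, 112 and 120.4 CPM in EVMu (-1.71 ± 0.054). All 4 sensors kept the groups apart. Syt11, a synaptotagmin that does not bind calcium, had 183, 181 and 181 CPM in EVadMu, against 632, 632 and 627 CPM in EVMu (-1.79 ± 0.031). Syt6 and Syt16 fell too (-1.12 ± 0.091 and -0.74 ± 0.21).

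Other synaptotagmins were higher. Syt3 had 6.56, 8.03 and 6.25 CPM in EVadMu, against 3.86, 4.72 and 4.13 CPM in EVMu (0.71 ± 0.18). Syt12, which does not bind calcium, had 8.60, 9.98 and 8.46 CPM in EVadMu, against 5.59, 6.41 and 7.35 CPM in EVMu (0.48 ± 0.15). Syt5 had 55.1, 54.6 and 53.3 CPM in EVadMu, against 42.6, 40.9 and 43.6 CPM in EVMu (0.36 ± 0.058). These rises, at most 1.64-fold, were smaller than the falls of Syt1, Syt7, Syt9 and Syt11, and in all 3 genes the EVadMu libraries lay above the EVMu libraries. Syt4, a synaptotagmin of dense-core vesicles induced by activity, was not called at 595, 608 and 649.5 CPM in EVadMu and 609, 578 and 587 CPM in EVMu (0.063 ± 0.032, 95% interval 0.00049 to 0.13). This normal interval leaves out 0, although the unadjusted p of edgeR's test was 0.0566. Syt4 was called higher in 5 of 14 alternatives, among them the omission of EVadMu replicate 1 (0.10, adjusted p = 0.00664) or EVadMu replicate 2 (0.086, adjusted p = 0.0333), in edgeR's test, with adjusted p from 0.00664 to 0.766 over all alternatives, and by library totals alone it stood at -0.050, not called. Syt13, Syt14, Syt17, Doc2b and Doc2g did not pass, with log2 fold changes of 0.40, -0.059, -0.17, 0.42 and -0.07. Doc2b, a soluble sensor for spontaneous release, passed without EVadMu replicate 3 (0.53, edgeR adjusted p = 0.0451; range over 14 alternatives 0.0451 to 0.31). Syt15, at under 2 CPM in every library, was lower (-1.48 ± 0.48), a call lost without EVMu replicate 3 (-1.17, edgeR adjusted p = 0.0646; range over 13 alternatives 0.00312 to 0.0646).

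SNARE regulators included the member with the largest fall of all. Unc13c, which encodes Munc13-3, a priming factor best known from the cerebellum, had 12, 19 and 22 counts in the EVadMu libraries, against 391, 418 and 476 counts in the EVMu libraries. In CPM this was 0.743, 1.19 and 1.39 in EVadMu and 25.1, 27.0 and 26.9 in EVMu, a log2 fold change of -4.57 ± 0.16. The other priming genes moved less. Unc13a, which encodes Munc13-1, the main priming factor of excitatory synapses, had 67.8, 66.7 and 66.1 CPM in EVadMu, against 71.2, 76.9 and 78.0 CPM in EVMu (-0.17 ± 0.051). Unc13b (Munc13-2) had 23.2, 21.0 and 21.6 CPM in EVadMu, against 44.9, 52.5 and 47.9 CPM in EVMu (-1.14 ± 0.074). Unc13d (Munc13-4), which primes granules of immune cells and platelets, was higher, with 6.43, 4.27 and 5.80 CPM in EVadMu, against 2.51, 2.85 and 2.49 CPM in EVMu (1.07 ± 0.21). The 4 genes of the family thus spanned falls of very different size and 1 rise, each with the groups apart.

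Among the syntaxin-binding proteins, Stxbp2 and Stxbp3, used in secretion by many cells, were lower (-0.85 ± 0.13 and -0.69 ± 0.078). Stxbp6, which encodes amisyn, a protein that can take the place of VAMP in the bundle, had 3.59, 4.08 and 4.10 CPM in EVadMu, against 9.32, 8.73 and 9.16 CPM in EVMu (-1.21 ± 0.16). Stxbp4 and the tomosyn gene Stxbp5l fell as well (-0.91 ± 0.12 and -0.81 ± 0.18), while the tomosyn gene Stxbp5 did not pass (-0.015 ± 0.048, 95% interval -0.11 to 0.079). Tomosyns hold syntaxin and SNAP proteins back from VAMP. The pseudogene Stxbp3-ps, with 3 to 22 counts per library, was called lower (-1.31 ± 0.5) although its groups overlapped. It can share reads with Stxbp3, and the call was lost in DESeq2 and without EVMu replicate 1, EVadMu replicate 1 or EVadMu replicate 3 (adjusted p = 0.0536 to 0.133 in these 4; range over 13 alternatives 0.006 to 0.133).

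The complexins went in opposite directions. Cplx1, the main complexin of fast synapses, had 390.3, 401 and 396 CPM in EVadMu, against 271, 264 and 265 CPM in EVMu (0.57 ± 0.032). Cplx2, of overlapping function, had 54.7, 55.9 and 54.8 CPM in EVadMu, against 81.3, 82.2 and 82.4 CPM in EVMu (-0.57 ± 0.05). The rise of one was as large as the fall of the other, and in neither gene did the groups overlap. Cplx3 and Cplx4, known from the retina, were not tested.

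Vamp1, Vamp2, Snap25 and Stx1a, of the core synaptic SNARE bundle, were higher. Vamp2, the main vesicle SNARE of synapses, had 348, 334 and 341 CPM in EVadMu, against 269, 273 and 273 CPM in EVMu (0.33 ± 0.032). Vamp1, its close relative, had 132, 140.4 and 131 CPM in EVadMu, against 116, 109.6 and 113 CPM in EVMu (0.25 ± 0.043). Snap25, their partner on the neuronal plasma membrane, had 227, 223 and 244 CPM in EVadMu, against 189.7, 189.9 and 189 CPM in EVMu (0.29 ± 0.038). In all 3 genes each EVadMu library lay above each EVMu library, by 1.19 to 1.26 times on average. Stx1a, the syntaxin of the presynaptic membrane, rose more, with 118, 128 and 122 CPM in EVadMu, against 69.5, 65.7 and 67.9 CPM in EVMu (0.86 ± 0.047). A subset of 20 genes of exocytosis at the synapse includes these and Syp, Syn1, Syn2, Sv2a, Rab3a, Syt1, Syt2, Cplx1, Cplx2, Unc13a, Rims1, Bsn, Pclo and Erc2. In it 13 were lower (65%) and 6 higher (30%), beside 40.8% and 39.2% of all tested genes, and the median was -0.61.

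The SNAREs used beyond the synapse were mostly higher. Vamp3, the cellubrevin of recycling endosomes, had 158, 146 and 160.3 CPM in EVadMu, against 104, 97.9 and 93.6 CPM in EVMu (0.65 ± 0.046). Vamp5, a VAMP named for its abundance in muscle, was the one VAMP gene to fall, with 8.72, 9.79 and 8.46 CPM in EVadMu, against 18.9, 15.8 and 17.9 CPM in EVMu (-0.96 ± 0.12). Vamp4, of the trans-Golgi network, did not pass (0.039 ± 0.051, 95% interval -0.061 to 0.14). Vamp8, an endosomal SNARE, was called higher (0.25 ± 0.091), but not without EVMu replicate 1, EVMu replicate 2 or EVadMu replicate 1, nor by library totals alone (0.14 to 0.23, edgeR adjusted p = 0.0526 to 0.154 in these 4; range over 14 alternatives 0.00337 to 0.154). Snap23, the SNAP protein of most cell types, had 49.6, 49.0 and 44.4 CPM in EVadMu, against 32.1, 32.6 and 33.2 CPM in EVMu (0.54 ± 0.065). Snap29, which acts in endosomal and autophagosomal fusion, had 44.5, 43.0 and 48.6 CPM in EVadMu, against 33.6, 35.3 and 35.2 CPM in EVMu (0.39 ± 0.066). Snap47 had 96.8, 100.4 and 95.8 CPM in EVadMu, against 81.1, 77.7 and 79.6 CPM in EVMu (0.30 ± 0.047). In these 3 SNAP-family genes, as in Snap25, the EVadMu libraries lay wholly above the EVMu libraries.

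Syntaxins gave 4 of the 5 members that rose at least 2-fold, and Unc13d was the fifth. Stx3, a syntaxin of apical membranes and of ribbon synapses, had 85.4, 78.2 and 86.0 CPM in EVadMu, against 24.3, 23.7 and 22.2 CPM in EVMu (1.83 ± 0.062), the largest rise of any member. Stx5a, the mouse symbol of syntaxin 5, which acts in vesicle transport between the endoplasmic reticulum and the Golgi, had 137, 132 and 129 CPM in EVadMu, against 48.4, 43.4 and 48.6 CPM in EVMu (1.50 ± 0.051). Stx18, a syntaxin of the endoplasmic reticulum that receives vesicles returning from the Golgi, had 63.1, 62.4 and 67.1 CPM in EVadMu, against 22.4, 26.0 and 22.3 CPM in EVMu (1.45 ± 0.067). In all 3 the EVadMu level was between 2.73 and 3.56 times the EVMu level and the groups lay far apart. Stx8, of late endosomes, rose with 1.06 ± 0.083, Stx11, a syntaxin of immune cell granules, with 0.92 ± 0.077, and Stx4a, the syntaxin of the plasma membrane of many cells, with 0.64 ± 0.056.

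Other syntaxin genes fell. Stx2, a plasma membrane syntaxin, had 37.4, 39.6 and 35.7 CPM in EVadMu, against 107, 104 and 107 CPM in EVMu (-1.50 ± 0.053). Stx17, which brings autophagosomes to lysosomes, had 26.5, 24.7 and 25.1 CPM in EVadMu, against 38.5, 37.9 and 37.9 CPM in EVMu (-0.58 ± 0.071). Stx7, of late endosomes and a partner of Stx8, had 116, 118 and 117 CPM in EVadMu, against 161, 156 and 154 CPM in EVMu (-0.43 ± 0.04). Stx7 and Stx8 thus changed in opposite directions. Stx16, of the trans-Golgi network, was close to the threshold (-0.11 ± 0.051, edgeR adjusted p = 0.0485), its groups overlapped, and its call was lost in 9 of 14 alternatives, among them the omission of any 1 library other than EVMu replicate 2 (-0.12 to -0.078, adjusted p = 0.0567 to 0.217; range over all alternatives 0.000197 to 0.217). Stx12, of recycling endosomes, rose slightly (0.16 ± 0.042) but not by library totals alone (0.050, edgeR adjusted p = 0.264; range over 14 alternatives 0.000181 to 0.264), and Stx6 did not pass (0.0091 ± 0.054, 95% interval -0.098 to 0.12). In the rat gene table Vamp5 and Vamp8 are neighbours, the one lower and the other higher. Since no strand-marking step is described, reads where genes overlap could not be parted.

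**Figure D3:**
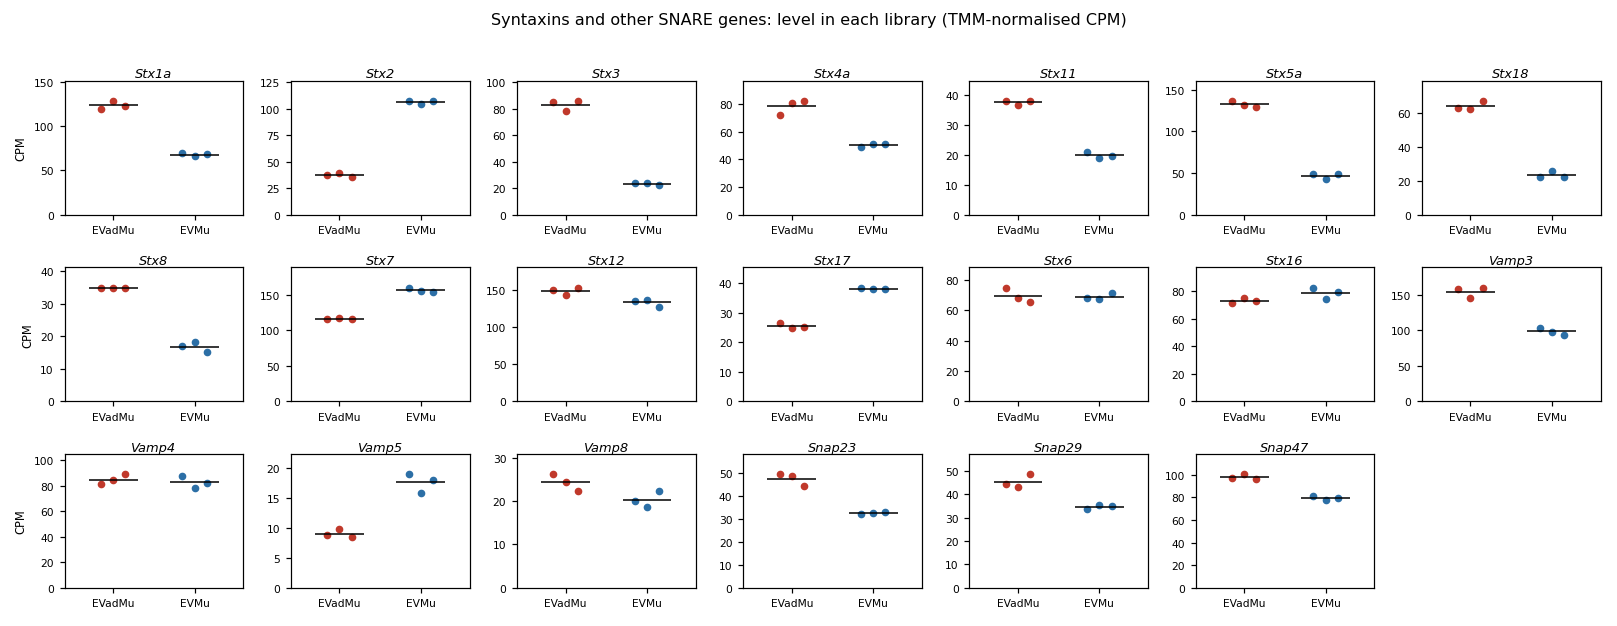
Level of 13 syntaxin, 4 VAMP and 3 SNAP-family genes in each library, in TMM-normalised CPM on axes that start at 0; points are the 3 libraries of EVadMu (red) and EVMu (blue), and lines are group means. The EVadMu libraries lie above the EVMu libraries for 13 genes, among them Stx3, Stx5a, Stx18 and Stx8. They lie below for 4 (Stx2, Stx17, Stx7 and Vamp5), and the groups overlap for 3.

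Stx3, Stx5a and Stx18 gave the 3 largest rises, and their promoters are shown beside that of Unc13c, the member with the largest fall. The sequences are rat RefSeq promoters of build GRCr8, from 250 bases before to 50 bases after the annotated start, and 70 of the 89 members had one, Stx4a and Stx5a by their rat symbols Stx4 and Stx5. The rat, the species the labels give, was used for these windows, although the counts were made on a mouse build and the species was not settled. Capitals mark matches, on either strand, to CRE (TGACGTCA), the C/EBP-ATF element CARE (TGATGCAA), the unfolded protein response element UPRE (TGACGTGG), the antioxidant element ARE (TGACNNNGC), the endoplasmic reticulum stress element ERSE and the left (TTCAGCACC) and right (GGACAGCGC) parts of RE1, the element of neuronal genes bound by REST. The Stx3 promoter lies at chr1:218110417-218110716, minus strand, that of Stx5 at chr1:215066282-215066581, plus strand, that of Stx18 at chr14:76973677-76973976, minus strand and that of Unc13c at chr8:83553773-83554072, minus strand.
Stx3: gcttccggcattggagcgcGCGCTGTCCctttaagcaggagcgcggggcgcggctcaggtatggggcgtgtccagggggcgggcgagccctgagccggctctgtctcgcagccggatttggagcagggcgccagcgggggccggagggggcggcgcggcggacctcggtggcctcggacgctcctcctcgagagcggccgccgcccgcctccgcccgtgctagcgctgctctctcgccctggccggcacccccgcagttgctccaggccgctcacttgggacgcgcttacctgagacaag
Stx5: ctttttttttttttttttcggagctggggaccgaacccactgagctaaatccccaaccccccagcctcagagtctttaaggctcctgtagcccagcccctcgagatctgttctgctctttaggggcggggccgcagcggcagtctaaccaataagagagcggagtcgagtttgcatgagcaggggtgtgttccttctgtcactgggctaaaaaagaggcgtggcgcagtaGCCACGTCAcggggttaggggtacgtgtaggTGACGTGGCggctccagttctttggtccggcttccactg
Stx18: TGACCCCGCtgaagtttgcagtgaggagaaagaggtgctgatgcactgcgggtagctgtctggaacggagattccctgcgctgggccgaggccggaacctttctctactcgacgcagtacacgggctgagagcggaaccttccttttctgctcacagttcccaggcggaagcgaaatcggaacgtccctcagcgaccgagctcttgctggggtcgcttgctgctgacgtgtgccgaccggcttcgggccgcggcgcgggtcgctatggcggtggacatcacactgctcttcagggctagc
Unc13c: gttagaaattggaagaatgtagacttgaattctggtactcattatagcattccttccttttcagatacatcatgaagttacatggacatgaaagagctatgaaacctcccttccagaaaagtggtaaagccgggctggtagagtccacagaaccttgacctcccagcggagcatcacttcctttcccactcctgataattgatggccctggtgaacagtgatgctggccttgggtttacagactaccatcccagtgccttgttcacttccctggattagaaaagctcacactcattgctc

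The Stx5 window held UPRE at 2 places, each overlapped by an ARE match, and Stx5a was the 1 member of 70 with a UPRE match (1.43%), where 0.637% of all 27457 promoters had one. UPRE was added to the search after this sequence had been seen. ARE was found in 14 members (20%; 12.2% of all promoters), 4 called higher and 7 called lower, with 1 match in the Stx18 window. The right part of RE1 was found in Stx3, Pclo and Unc13a (4.29%; 0.441% of all promoters) and the left part in Unc13a (1.43%; 0.379%). CRE was found in Syn1 and Vamp1 (2.86%; 1.91%), CARE in Stxbp3 (1.43%; 0.743%) and ERSE in no member (0.0765% of all promoters). The GC box GGGCGG, which is not capitalised, was found in 46 members (65.7%; 34.9%), 15 called higher and 26 called lower. It occurred 4 times in the Stx3 window, 1 time in that of Stx5 and 0 times in those of Stx18 and Unc13c. A match describes the letters of these windows and no bound factor.

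Ratios of family members within a library remove the scaling between libraries. For 16 pairs, the log2 ratio of the CPM levels was taken in each library with a prior count of 0.5. In 13 pairs the 3 EVadMu libraries lay wholly to one side of the 3 EVMu libraries, and each of these had p = 0.1 in the exact two-sided permutation test, the smallest that 3 against 3 libraries allow (adjusted over the 16 pairs, 0.123). No pair could therefore pass 0.05, and the spread between libraries is the measure given. Of all tested genes taken singly, 80.7% had no overlap between the groups, and the share among other pairs of genes was not computed. Rab3a over Rab3d was 1.47, 1.44 and 1.69 in EVadMu, against -0.68, -0.59 and -0.65 in EVMu (difference 2.18), and Cplx1 over Cplx2 was 2.83, 2.84 and 2.85 in EVadMu, against 1.74, 1.68 and 1.68 in EVMu (difference 1.14). These shifts exceed the spread between libraries several times over.

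Slc17a6 over Slc17a7 is given above. Smaller shifts that also kept the groups apart were 0.97 for Unc13a over Unc13b, 0.56 for Syt1 over Syt11, -0.38 for Syn1 over Syn2, -0.32 for Vamp2 over Vamp3, -0.25 for Snap25 over Snap23, -0.22 for Erc2 over Erc1, 0.22 for Stx1a over Stx4a and 0.19 for Syngr1 over Syngr2. In Snap25 over Snap23, Erc2 over Erc1 and Stx1a over Stx4a the second form is the one used by many cells. The shifts of these pairs had no single direction. The gap was narrow in Snap25 over Snap23, where the highest EVadMu library had 2.46 and the lowest EVMu library 2.51. In Syngr1 over Syngr2 the lowest EVadMu library had 1.83 and the highest EVMu library 1.79. Vamp1 over Vamp8 and Rims1 over Rims2 overlapped between the groups, with differences of -0.003 and 0.0097 (exact permutation p = 0.9 and 1).

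**Figure D4:**
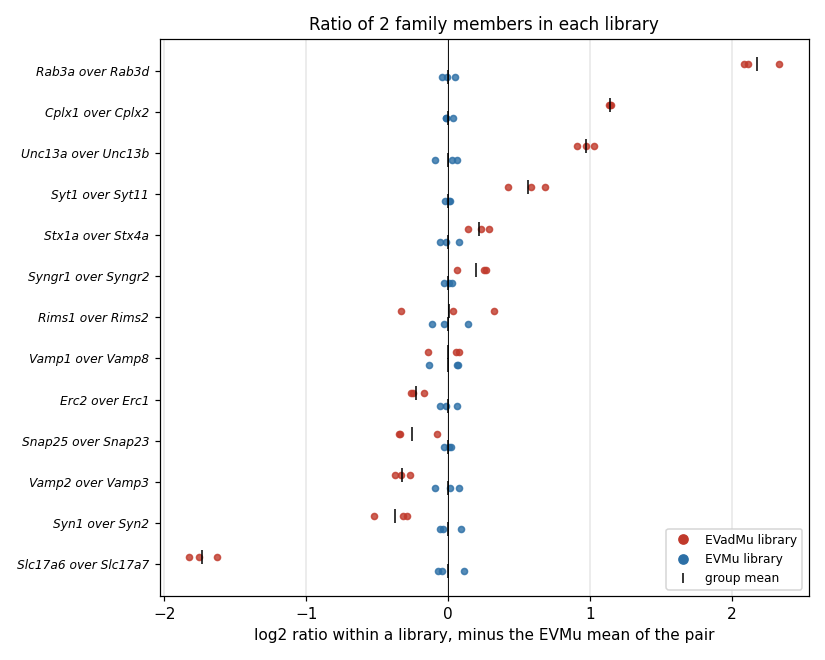
Log2 ratio of 2 family members in each library for 13 pairs, less the mean of the EVMu libraries of the pair; red points are EVadMu and blue points EVMu libraries, and ticks are group means. Of these, Slc17a6 over Slc17a7 lies lowest in EVadMu (-1.74) and Rab3a over Rab3d highest (2.18).

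Among 14 SNAREs of the Golgi, endosomes and lysosomes in the table (Vamp3, Vamp4, Vamp8, Snap23, Snap29, Snap47, Stx5a, Stx6, Stx7, Stx8, Stx12, Stx16, Stx17 and Stx18), 9 were higher and 3 lower, with a median of 0.28. These shares, 64.3% higher and 21.4% lower, stand beside 39.2% and 40.8% of all tested genes. The summed level of the 14 genes was 1106 to 1131 CPM in EVadMu and 901 to 932 CPM in EVMu. Early secretory SNARE genes outside the symbols chosen moved further: of 12, 9 were higher (75%) and 1 lower (8.33%), with a median of 1.16. Sec22b, the vesicle SNARE between the endoplasmic reticulum and the Golgi, averaged 361 ± 7.03 CPM in EVadMu and 92.0 ± 2.37 CPM in EVMu (SD, n = 3 each; 1.97 ± 0.038). Bet1l and Use1 rose with 1.46 ± 0.073 and 1.39 ± 0.065, and Sec22c fell (-0.65 ± 0.072). Use1 and Bnip1 encode partners of the Stx18 protein, and Bnip1 rose with 1.20 ± 0.089. Vti1a and Sec22a did not pass (0.048 and 0.16).

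Of 19 further active zone partners, 14 were lower (73.7%) and 4 higher (21%), beside 40.8% and 39.2% of all tested genes. Their median was -1.17. The neurexin genes Nrxn3 and Nrxn2, whose proteins reach across the synaptic cleft, fell with -2.04 ± 0.11 and -1.67 ± 0.053. Ppfia1, the widely expressed liprin-alpha gene, rose to 267 ± 4.67 CPM in EVadMu, against 92.4 ± 1.29 CPM in EVMu (1.53 ± 0.038), whereas Ppfia2, Ppfia3 and Ppfia4 fell (-1.04, -1.35 and -1.54). Lin7c and Git1 rose by smaller amounts (0.52 ± 0.043 and 0.25 ± 0.034).

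Of 30 tested genes of the vesicle cycle outside the symbols chosen, 16 were lower (53.3%) and 10 higher (33.3%), with a median of -0.15. Over all tested genes 40.8% were lower and 39.2% higher. The share called, 86.7%, was near the 80% of all genes. Rab27a, Sytl4 and Sytl3, of the machinery that docks secretory granules, fell with -3.11 ± 0.21, -2.23 ± 0.37 and -2.23 ± 0.16. Sytl1, of the same family as Sytl3 and Sytl4, and Slc18a1, a vesicular monoamine transporter gene of endocrine cells, rose with 3.73 ± 0.22 and 2.48 ± 0.22. Napa, which encodes the alpha-SNAP that takes spent SNARE bundles apart, averaged 682 ± 5.31 CPM in EVadMu and 206 ± 12 CPM in EVMu (1.73 ± 0.035), while Nsf, the ATPase it recruits, fell slightly (-0.13 ± 0.039). Of 29 genes of vesicle endocytosis, 15 were lower (51.7%) and 11 higher (37.9%), with a median of -0.22. The share higher was near that of all genes. The stonin genes Ston1 and Ston2 and the dynamin gene Dnm3 fell with -2.26 ± 0.088, -1.70 ± 0.088 and -1.54 ± 0.058, and Clta, Sh3gl1 and Picalm, of clathrin light chain a, endophilin A2 and a clathrin assembly protein, rose with 1.37 ± 0.036, 0.81 ± 0.043 and 0.77 ± 0.034.

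**Figure D5:**
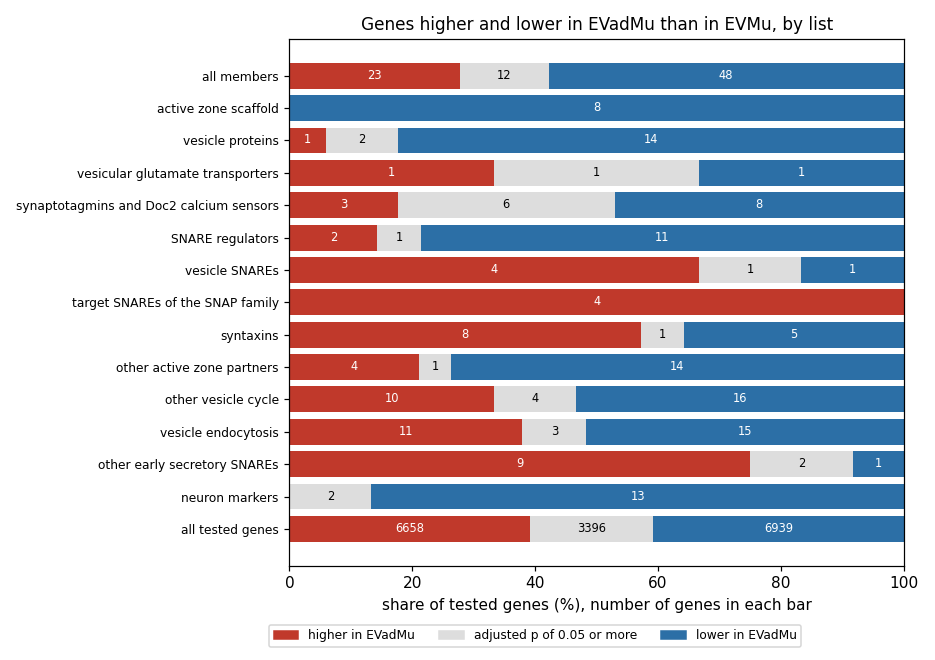
Share of tested genes called higher (red), called lower (blue) and not called (grey) in EVadMu against EVMu, in percent, for the members by role, 4 lists of related genes, neuron markers and all tested genes; numbers in the bars count genes. The scaffold bar is wholly blue (8 of 8) and the SNAP-family bar wholly red (4 of 4), beside 39.2% higher and 40.8% lower over all tested genes.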

How the data were processed

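Poly(A)-selected RNA of 6 libraries was sequenced, per the labels' protocols. What the authors deposited are raw read counts for each gene, without normalisation. The tools were featureCounts, SAMtools, HISAT2 and CASAVA 1.8 and the build mm39, per the submitters' processing notes, which give no roles. Settings for strand and reads with several hits: not given in the sources used here. All columns of the table were used.

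The fit used edgeR 4.0.16 (R 4.3.3): the default expression filter (minimum count 10, minimum total 15), TMM factors and the quasi-likelihood test with Benjamini-Hochberg adjustment over all tested genes. The standard error is the log2 fold change divided by the root of F. Intervals are normal and so narrower than the F-test implies. Alternatives were other scaling (RLE, upper-quartile, none), filtering by nothing or by 20 counts in 3 libraries with a mean of 1 CPM, a replicate block, DESeq2 1.42.0, limma-voom (limma 3.58.1) and each library left out, which for the ratios was chosen after seeing the data. Members, lists, pairs and markers were chosen with earlier results of these data known. Levels in every library are given for up to 3 called members each way per role with a mean CPM of at least 1, and for the exocytosis subset. Of each related list up to 3 called genes each way are named; Nsf, Bnip1, Vti1a, Sec22a and Ppfia2 to Ppfia4 were added after their values were seen. Some genes counted in the totals, and ratios with them, are not reported here by name. The biological coefficient of variation was 4.08%, and same-numbered libraries did not deviate together (r = -0.0067, -0.0037 and -0.0096).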

Additional observations from a re-analysis of the deposited data

How the results depend on the processing

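Over 14 alternatives, members called higher numbered 19 to 24 (23 as reported), members called lower 45 to 50 (48), members called with at least 2-fold 30 to 34 (32) and all genes called 12693 to 14771 (13597). Library totals without scaling factors moved the median log2 fold change of all genes to -0.13, against -0.02 as reported, so small changes depend on the scaling. With the replicate block 22 members were higher and 47 lower, and the numbers were not found to pair the libraries. Of the 71 called members, 64 kept their direction and call under every alternative that tested them, and none of the 71 changed sign. The other 7 were Slc17a7, Stx12, Stx16, Stxbp3-ps, Syp, Syt15 and Vamp8, and the causes were not tested. Of the 12 not called, Rab3a passed with upper-quartile factors (-0.13, edgeR adjusted p = 0.0311) and with no factors (-0.19, 0.00222; range over alternatives 0.00222 to 0.907), and Stxbp5 with no factors (-0.13, 0.0152; range 0.0152 to 0.934). Depth limits the members with few counts, among them Syngr4, Doc2g, Syt15 and Stxbp3-ps.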
